A study of Mus musculus with 2 samples.

Results

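Mir221 and Mir222 are a pair of microRNA hairpin genes that lie beside each other on the mouse X chromosome. They were taken as the gene rows whose Ensembl ID carries the GENCODE mouse symbol Mir221 or Mir222, which gave 2 of the 1973 rows of each count table. The data are microRNA sequencing of RNA under 30 nt from the midbrain of B6NCrl mouse embryos at embryonic day 13.5, healthy and with no treatment named in the labels. Embryos of both sexes were pooled, and the 1 group has 2 biological replicates with a library each. The labels tie both replicates to 1 donor entry, and they do not say whether the pooled embryos came from separate litters. There is no other tissue, age or treatment, so the comparisons are between the hairpins of the cluster, between the libraries, and with other loci of the same libraries.

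A microRNA gene is transcribed as part of a longer primary RNA, from which the enzymes Drosha and Dicer cut a hairpin and then a short duplex. One strand of the duplex is loaded into an Argonaute protein and pairs with messenger RNAs, mainly through its seed, bases 2 to 8 from the 5′ end. Mature miR-221 and miR-222 are known to come from 1 primary transcript, to share a seed, and to repress the cyclin-dependent kinase inhibitor p27 (Cdkn1b), a brake on entry into the cell cycle. They are also known from endothelial cells and blood cell precursors, where the receptor kinase Kit is a target.

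The mature 3p sequences are shown first because they decide which reads can be told apart and which targets the microRNAs share. They come from RefSeq on GRCm38.p6, and capitals mark the seed. The third sequence, miR-1928, is the remaining entry with this seed among the 1738 mature sequences of the table.
mmu-miR-221-3p: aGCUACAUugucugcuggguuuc
mmu-miR-222-3p: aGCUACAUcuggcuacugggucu
mmu-miR-1928: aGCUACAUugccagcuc

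The first 8 bases of miR-221-3p and miR-222-3p were identical. Beyond the seed the sequences parted, and 11 of 23 positions (47.8%) matched without gaps. The table also lists mmu-miR-221-5p, cut from the other arm of the Mir221 hairpin, with its own seed in capitals.
mmu-miR-221-5p: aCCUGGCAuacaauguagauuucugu

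The hairpins follow, with the 3p sequence in capitals, because the counts were made per hairpin and both arms fall in 1 count.
Mir221: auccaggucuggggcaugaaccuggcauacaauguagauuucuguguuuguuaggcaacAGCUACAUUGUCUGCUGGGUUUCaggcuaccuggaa
Mir222: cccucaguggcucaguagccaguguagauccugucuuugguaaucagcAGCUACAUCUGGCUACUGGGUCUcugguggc

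Mir221 (ENSMUSG00000065422.1) is a hairpin of 95 nt on the minus strand at chrX:19146294-19146388 of mm10. Mir222 (ENSMUSG00000065471.1) is a hairpin of 79 nt at chrX:19146893-19146971, upstream of Mir221 in the direction of transcription and 504 bases from it. In GENCODE M21 no other gene overlaps the cluster, so no host transcript, exon or intron is annotated there. The nearest upstream gene on the same strand is the noncoding Gm14636, 10009 bases away. The longest run of bases that the hairpins share with each other is 9 nt. The longest run shared with any other hairpin of the table, on either strand, is 13 nt for Mir221 and 12 nt for Mir222, below the 20 nt at which a locus was called uncertain here.

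Known targets were searched for the seed match, the 7 letters ATGTAGC on the sense strand of the longest annotated 3′ UTR of each gene, in GENCODE M21 transcripts. No messenger RNA was measured, and the 11 genes were chosen as known or proposed targets, so a match is a description of sequence. Among the 11 genes reported here, 9 had the match, and 8 of them also had the A that follows in the strongest class of site (ATGTAGCA). Over all 20791 genes with a 3′ UTR the share with the match was 9.51%, and 3.51% had it with the A, at a median UTR length of 967 nt. The sites of Cdkn1b, of its relative Cdkn1c (p57) and of Kit are shown, up to and including that A, with the seed match in capitals.
Cdkn1b: catctgcctctaaaagcattggATGTAGCa
Cdkn1c: cttcggctgggacctttcgttcATGTAGCa
Kit, first site: catccttaatgatgggagatatATGTAGCa
Kit, last site: ggctttttttgtaaatattgaaATGTAGCa

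The site of Cdkn1b lay at bases 2357 to 2363 of a UTR of 3439 nt. Among UTRs of 0.8 to 1.25 times that length, 23.1% held the 7 letters. The site of Cdkn1c lay at bases 95 to 101 of 688 nt, where 4.97% of UTRs of like length held the match. Kit had 2 sites in 2177 nt, against 15.4% of UTRs of like length with at least 1. Of the other genes, Bbc3, Bcl2l11, Ets1, Esr1 and Bmf had a match with the A, Timp3 had a match without it, and the letters were not in the UTR searched for Foxo3 and Tbk1. For these genes the share of UTRs of like length with the match ran from 4.93% (Tbk1) to 29.4% (Foxo3).

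The libraries held 5093743 and 2935841 reads on the strand of a gene in replicates 1 and 2, and all levels are these counts scaled to a common library total as CPM. A further 34.4% and 37.7% of all reads mapped to several places and are in no locus count. Where no read was counted, the upper limit, set at 3 counts, was 0.589 CPM for replicate 1 and 1.02 CPM for replicate 2. Intervals are 95% exact Clopper-Pearson intervals and, like these limits, cover counting error only, since the tables hold no molecular identifiers. In tissue like this, fewer cells with a microRNA and less of it per cell cannot be told apart.

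Both hairpins were present at moderate to low levels, and Mir221 was the higher of them in each library. Mir221 had 740 counts in replicate 1 and 345 in replicate 2. These were 145 CPM (interval 135 to 156) and 118 CPM (105 to 131), with a mean of 131 ± 19.6 CPM (SD, n = 2). The intervals of the libraries did not overlap, and replicate 1 was the higher. Mir222 had 355 and 218 counts, or 69.7 CPM (62.6 to 77.3) and 74.3 CPM (64.7 to 84.8), with a mean of 72.0 ± 3.23 CPM (SD, n = 2). Here the intervals overlapped, and replicate 2 had the higher value. No read was counted on the opposite strand at either hairpin.

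Together the pair held 215 CPM in replicate 1 and 192 CPM in replicate 2, a mean of 203 ± 16.4 CPM (SD, n = 2). Mir1928, which carries the same seed, had 0 counts in both libraries, so it was below the limits given above.

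**Figure D1:**
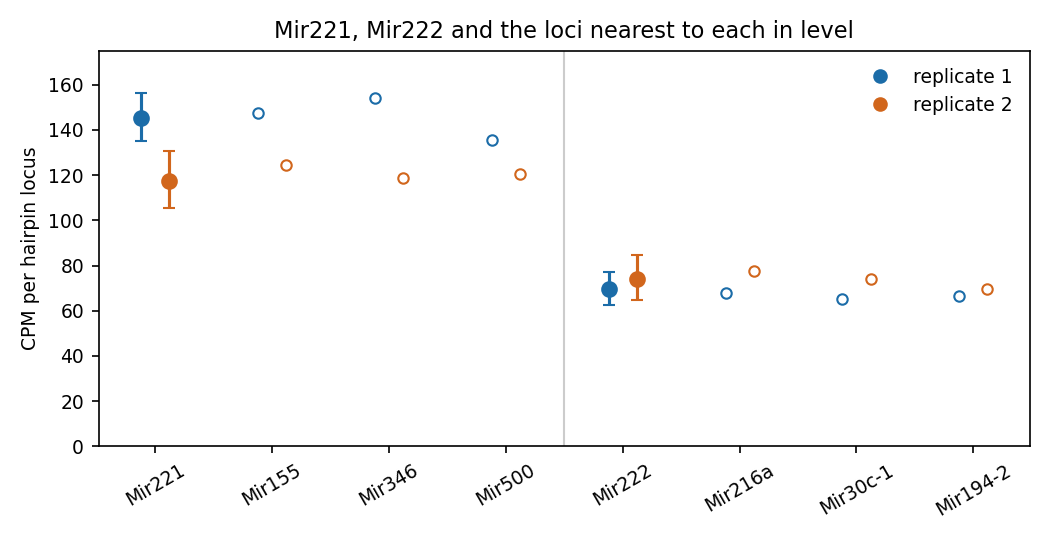
Level in CPM (vertical axis from 0) of Mir221, Mir222 and the 3 loci nearest to each in level, in replicate 1 (blue) and replicate 2 (orange). Bars on the filled points are 95% exact intervals of counting error. Mir221 stands at 145 and 118 CPM and Mir222 at 69.7 and 74.3 CPM.

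Read per hairpin, Mir221 was counted 2.08 times as often as Mir222 in replicate 1 (interval 1.83 to 2.37) and 1.58 times in replicate 2 (1.33 to 1.88). As a share of the pair, Mir221 took 67.6% of 1095 counts (64.7% to 70.3%) and 61.3% of 563 counts (57.1% to 65.3%). Both intervals lay above an equal split, and they overlapped each other. Per base of the annotated hairpin, which is longer for Mir221, the ratio was 1.73 (1.53 to 1.97) and 1.32 (1.11 to 1.57). The order Mir221 above Mir222 thus held in both libraries on both scales. The mean ratio was 1.83 ± 0.355 per hairpin and 1.52 ± 0.295 per base (SD, n = 2). The arms of a hairpin were not told apart, so the ratio is between hairpins and not between mature 3p sequences.

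**Figure D2:**
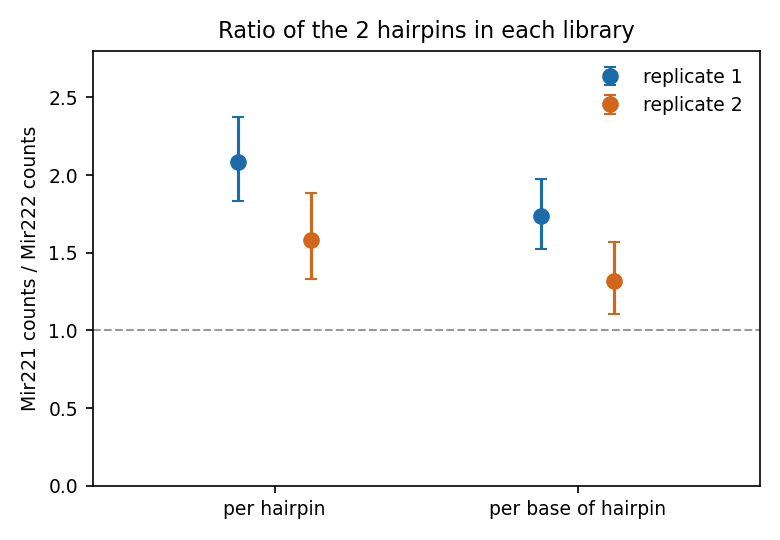
Ratio of Mir221 to Mir222 counts (vertical axis from 0) in each library, per hairpin on the left and per base of hairpin on the right, with 95% exact intervals of counting error. The dashed line marks equal counts, and all 4 intervals lie above it.

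Between the libraries, Mir221 passed the test and Mir222 did not. The test was a two-sided exact conditional binomial test of each locus given library sizes scaled by edgeR's TMM method, with Benjamini-Hochberg adjustment over the 466 loci with at least 10 counts. It compares these 2 libraries, takes in no spread between animals, and called 38.0% of all tested loci, with 18.7% higher in replicate 1 and 19.3% higher in replicate 2. A call of 1 member in 2 is therefore read against a background at which calls are common. The TMM-scaled level of Mir221 in replicate 1 was 1.18 times that in replicate 2 (log2 ratio 0.24, adjusted p = 0.0309, exact conditional binomial test). Mir222 had a log2 ratio of -0.16, or 1.12-fold in the other direction (adjusted p = 0.359, same exact test). Scaling by total counts alone gave 0.30 and -0.09, on the same sides of the threshold, and moved the share of called loci that were higher in replicate 1 from 49.2% to 61.9%.

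Neither difference stood out from loci of a like level. Among the 50 tested loci nearest to Mir221 in mean CPM, 20 had a larger absolute log2 ratio, the median was 0.19, and 21 passed the test. Among the 50 nearest to Mir222, 31 had a larger absolute log2 ratio, with a median of 0.26, and 19 passed. Within the pair, the log2 ratio of Mir221 to Mir222 was 1.06 in replicate 1 and 0.66 in replicate 2, a difference of 0.40 between libraries.

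**Figure D3:**
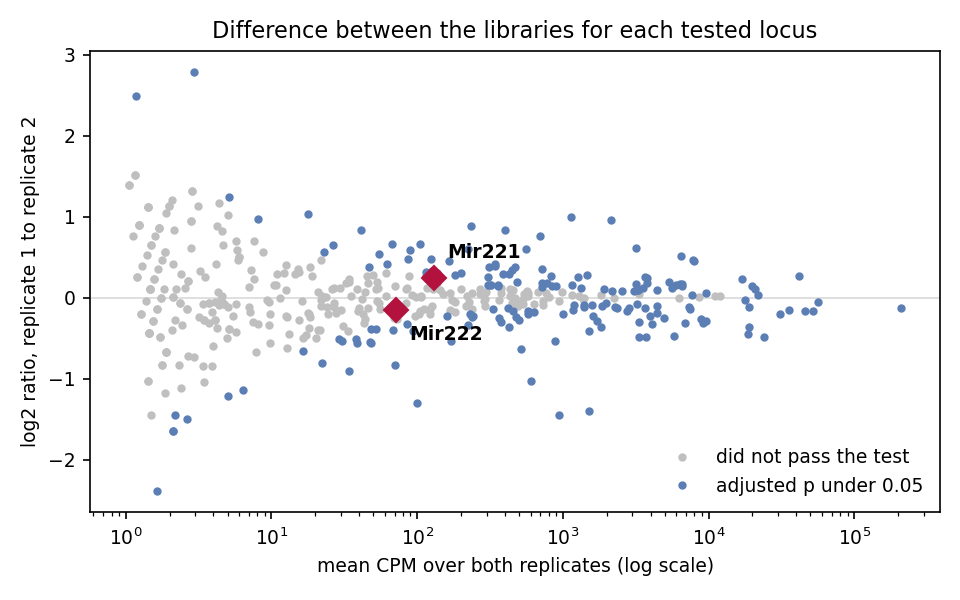
Log2 ratio of replicate 1 to replicate 2 (vertical axis) against mean CPM (horizontal log axis) for the 466 tested loci, with loci past the test in blue and the others in grey. Mir221 (0.24) and Mir222 (-0.16), marked in red, lie on opposite sides of 0 and inside the cloud of loci at their level.

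Neighbouring hairpins elsewhere in the genome were usually less equal than Mir221 and Mir222. Consecutive microRNA loci on the same strand, at most 10000 bases apart and each with at least 10 counts, formed 104 pairs. Each pair was described by the absolute value of its mean log2 ratio over the libraries. This was 0.86 for Mir221 and Mir222, and 15 pairs had a smaller value. The median of all pairs was 3.03, with quartiles at 1.39 and 5.38. Per base of the hairpin the values were 0.59 for Mir221 and Mir222 and 2.94 for the median, with 11 pairs more equal. The smallest value was 0.05 for Mir5134 and Mir6965, whose log2 ratios of 0.83 and -0.74 cancel in the mean, and the largest was 10.84 for Mir411 and Mir1197. Of these pairs, 40 hold a hairpin that shares 20 nt or more with another hairpin, so its ambiguous reads went uncounted. With these pairs and those with a hairpin not matched to a sequence left out, a setting added once the values were known, 50 pairs remained, the median was 2.25 and 6 pairs were more equal.

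A difference of 0.40 between libraries in the log2 ratio of a pair was also ordinary. It was larger in 37 of the 104 pairs, and the median was 0.31. The sign of the ratio was the same in both libraries in 100 of the 104 pairs, Mir221 and Mir222 among them.

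By the mature sequences listed in RefSeq, Mir221 and Mir222 were 1 of 21 pairs whose hairpins have a mature sequence with the same seed. A pair with a hairpin that has no mature sequence listed was counted as not sharing, so the 21 may be incomplete. The median of the same measure over these 21 was 2.20 per hairpin, and 3 of them were more equal, at 0.79 for Mir16-1 and Mir15a, 0.78 for Mir93 and Mir106b, and 0.52 for Mir450-1 and Mir450-2. Mir16-1 and Mir15a restrain the cell cycle, whereas Mir93 and Mir106b promote it. Per base, 1 of the 21 was more equal than Mir221 and Mir222. Mir16-1, Mir450-1 and Mir450-2 share 20 nt or more with another hairpin and are uncertain, and Mir15a had no hairpin sequence matched. With pairs holding such a hairpin left out, 6 of the 21 remained, with a median of 1.92 per hairpin, and 1 was more equal. The 21 pairs were set apart after the data were seen and are given without a test. Mir449b had no hairpin sequence matched. Its pairs, with Mir449c at 0.10 and with Mir449a at 10.17 per hairpin, are not among the 21. Nor are the pairs of Mir302a, with Mir302d at 0.27 and with Mir302c at 3.78 per hairpin. The counts and the median could therefore differ on a complete set.

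**Figure D4:**
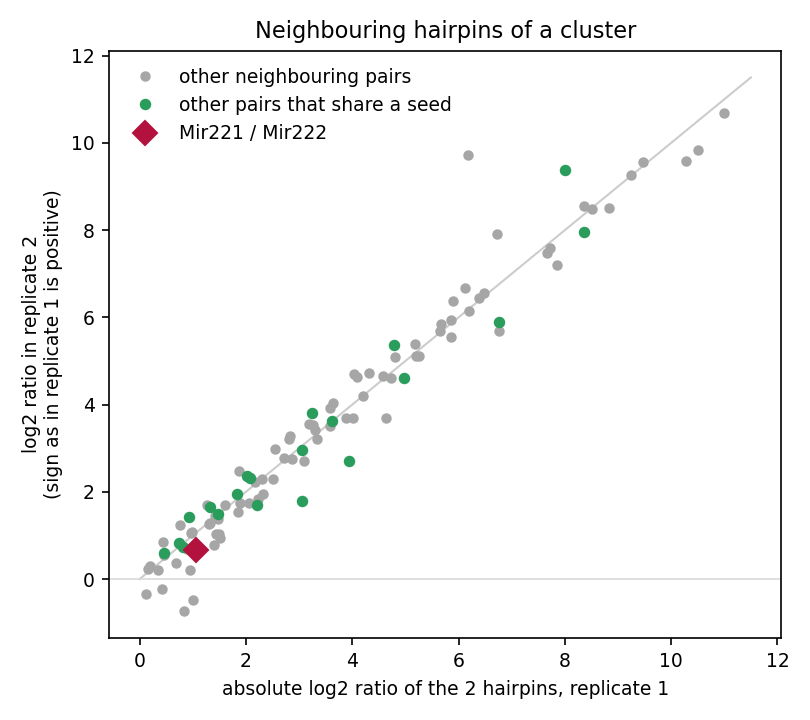
Log2 ratio of the hairpins of each of 104 neighbouring pairs in replicate 2 (vertical axis) against its absolute value in replicate 1 (horizontal axis), with a positive vertical value where the sign is the same in both libraries. Mir221 and Mir222 (red, 1.06 and 0.66) lie near the origin, and the line marks equal values. Other pairs that share a seed by the listed mature sequences are green.

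In order of mean CPM per hairpin, Mir221 was number 188 and Mir222 number 219 of the 1973 loci. In replicate 1 they were numbers 188 and 220 and in replicate 2 numbers 193 and 219. On levels per 100 nt of annotated hairpin they stood at 138 ± 20.7 and 91.1 ± 4.08 CPM (SD, n = 2), numbers 195 and 220. As RNA under 30 nt was sequenced, counts need not grow with hairpin length, and the order on this scale depends in part on that length. The loci next to Mir221 in mean CPM were Mir155, at 136 ± 16.3 CPM, and Mir500, at 128 ± 10.7 CPM, and neither differed from it beyond the SD. Per 100 nt, Mir155, a microRNA of activated immune cells with a short hairpin, stood at 209 ± 25.1 CPM, above Mir221, while Mir500 stood at 139 ± 11.6 CPM. The loci next to Mir222 were Mir216a, at 72.7 ± 7.02 CPM, and Mir448, at 70.5 ± 26.1 CPM, again within the SD. Per 100 nt these were 101 ± 9.75 and 62.9 ± 23.3 CPM.

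Likeness was measured as the larger of the absolute differences in log2(CPM + 0.5) over the 2 libraries. Nearest to Mir221 were Mir155 (0.08), Mir346 (0.08), at 154 and 119 CPM, and Mir500 (0.10). All 3 were, like Mir221, higher in replicate 1 by CPM. Nearest to Mir222 were Mir216a (0.06), Mir30c-1 (0.09) and Mir194-2 (0.10), all with the higher CPM in replicate 2. Mir30c-1 and Mir194-2 share a run of 20 nt or more with another hairpin and are uncertain. With 2 libraries this likeness is little more than a like level. Both libraries enter the measure, so the shared direction largely follows from how these loci were chosen.

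On the X chromosome, the pair lay in the lower part of the microRNA loci with at least 10 counts. The tables hold 120 microRNA loci that GENCODE places there, of which 62 had no count in either library and 43 had at least 10 counts and were tested. Per 100 nt, 25 loci of this chromosome lay above Mir221 and 28 lay above Mir222, against 23 and 27 by CPM. The highest by CPM were Mir322, of the Mir322 and Mir503 cluster, at 9564 ± 1020 CPM, Mir652 at 4920 ± 443 CPM and Mir361 at 4450 ± 90.4 CPM. The test called 7 of these 43 loci with more in replicate 1, Mir221 among them, and 15 with more in replicate 2, against 18.7% and 19.3% of all tested loci. Their median log2 ratio was -0.07, against -0.0041 over all tested loci. With total counts alone the split was 9 and 13, against 112 and 69 of all 466 tested loci.

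**Figure D5:**
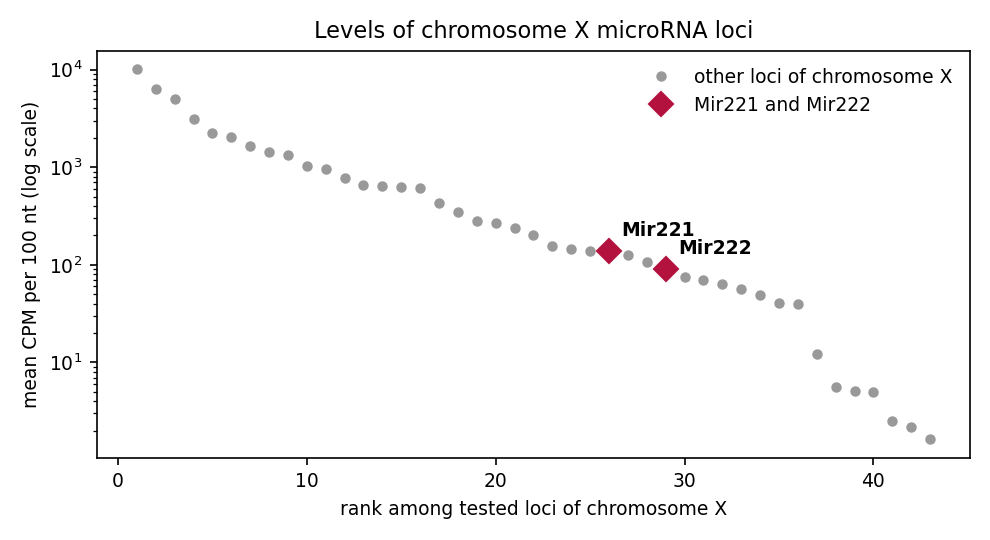
Mean level per 100 nt of hairpin (CPM, vertical log axis) of the 43 tested microRNA loci of chromosome X against their rank. Mir221 (138) and Mir222 (91.1), in red, have 25 and 28 loci above them.

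MicroRNAs with known roles in the cell cycle were compared with the pair as a fixed list. Those listed here as promoting division, chiefly the Mir17 cluster and its paralogs, with Mir24-2 and Mir21a, had 17 members with a row, all tested. Per 100 nt, 12 of them lay above Mir221 and 14 above Mir222, the same numbers as by CPM. The highest were Mir17 at 49981 ± 8113 CPM per 100 nt, Mir93 at 23596 ± 1983 and Mir20a at 15775 ± 2303 (SD, n = 2). The test called 9 of the 17 with more in replicate 1 and 2 with more in replicate 2, left 6 uncalled, and the median log2 ratio was 0.10. Of these loci, Mir92-1, called with more in replicate 1, and Mir24-2, called with more in replicate 2, share 20 nt or more with another hairpin. Both are uncertain, as are the uncalled Mir92-2, Mir19b-1 and Mir19b-2. The list summed to 11.9% of the counts of replicate 1 and 10.02% of replicate 2.

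Those that restrain division, chiefly let-7, miR-15/16 and miR-34, had 22 members with a row, and all 22 were tested. Per 100 nt, 17 of them lay above Mir221 and 18 above Mir222, against 16 and 18 by CPM. The highest were Mirlet7g at 51754 ± 2426 CPM per 100 nt, Mirlet7i at 28356 ± 5761 and Mir322 at 10068 ± 1074 (SD, n = 2). Here 3 of the 22 were called with more in replicate 1 and 12 with more in replicate 2, 7 were uncalled, and the median log2 ratio was -0.16. The 3 with more in replicate 1, Mir16-2, Mirlet7c-2 and Mirlet7a-1, share 20 nt or more with another hairpin and are uncertain. So are Mir16-1, Mirlet7a-2, Mirlet7c-1 and Mirlet7f-2, while Mir15a and Mir449b had no hairpin sequence matched. The direction of both medians was the same with DESeq2 size factors (0.11 and -0.16) and with total counts alone (0.17 and -0.10), where the split of calls was 10 and 1 for the promoting list and 3 and 9 for the restraining list. Members of 1 cluster share a transcript, so these counts are not of independent loci. Over all tested loci 18.7% were called with more in replicate 1 and 19.3% with more in replicate 2, and the lists were not tested against other loci.

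Markers of endothelial, mural and mesenchymal, leukocyte and erythroid cells were measured in the same libraries. Mir126a, of endothelial cells, stood at 16256 CPM in replicate 1 and 21170 CPM in replicate 2, and passed the test as higher in replicate 2 (log2 ratio -0.45). Its hairpin shares 20 nt or more with an annotated hairpin on the other strand or elsewhere and is uncertain. Of 7 mural and mesenchymal loci, 5 were tested and 3 of these were called (Mir143, Mir214 and Mir145a), all with more in replicate 2, a direction called for 19.3% of all tested loci. Highest in level were Mir143 at 5809 ± 1156 CPM, Mir214 at 242 ± 19.2 CPM and Mir199b at 104 ± 5.28 CPM, the last uncalled. The list summed to 5385 and 7071 CPM, and Mir145b had 0 counts in both libraries.

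The 4 leukocyte loci summed to 359 and 404 CPM, led by Mir223 at 172 ± 39.6 CPM, Mir155 and Mir146 at 47.6 ± 11.2 CPM. The test called Mir223 and Mir146, both with more in replicate 2, and left Mir155 and Mir150 uncalled, while with total counts alone 1 leukocyte locus was called with more in replicate 1. The 3 erythroid loci summed to 93.4 and 86.9 CPM, with 46.7 ± 10.1 CPM for Mir451a, 31.0 ± 4.37 CPM for Mir144 and 12.5 ± 1.06 CPM for Mir486. Of these Mir451a passed, with more in replicate 1. Among all tested loci, 18.7% passed with more in replicate 1 and 19.3% with more in replicate 2, so calls in these short lists are not set apart. Mir199b, Mir146 and Mir451a share a run of 20 nt or more with another hairpin and are uncertain too. Mir143, Mir145a, Mir145b, Mir150 and Mir486 had no hairpin sequence matched and could not be checked for this. The endothelial, mural and leukocyte sums were thus higher in replicate 2 and the erythroid sum in replicate 1. Within the erythroid list only Mir451a was higher in replicate 1 by CPM, while Mir144 and Mir486 were higher in replicate 2. Of the leukocyte loci, Mir155 and Mir150 were higher in replicate 1 by CPM, and Mir223 and Mir146 in replicate 2. The part of these cells in the counts of Mir221 and Mir222 was not tested.

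For the tissue itself, the neuronal and neural progenitor list had 12 loci with a row, none without counts, and summed to 22834 and 21053 CPM. Mir92b, of neural progenitors, stood at 9214 ± 1094 CPM, Mir137 at 7831 ± 2028 CPM and Mir153 at 3545 ± 331 CPM. The test called 2 of the 12 loci in each direction, against 18.7% and 19.3% of all tested loci, and left 8 uncalled. Per 100 nt, 6 of the 12 lay above both Mir221 and Mir222. Among these, Mir128-1, Mir128-2 and Mir9-3 share 20 nt or more with another hairpin and are uncertain. Of the loci below the pair, Mir218-1, Mir218-2 and Mir9-2 are uncertain for the same reason. Mir124a-1, Mir124a-2 and Mir124a-3, also below, had no hairpin sequence matched and could not be checked. Ambiguous reads of such hairpins went uncounted. Whether the mature microRNAs of the loci below lie under the pair cannot be told from these counts.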

How the data were processed

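Small RNA (under 30 nt) of embryonic midbrain was sequenced in 2 libraries, 1 per biological replicate. The authors deposited raw read counts per gene, on mm10 with annotation M4 per the file headers and deposited notes. Aligner, trimming and read filters: not given in the sources used here. In 3946 of 3946 rows the leading value was the total of the next pair, from which the columns were read as unstranded, same-strand and opposite-strand counts. Same-strand counts were used, and CPM was taken over all gene rows without the 4 summary rows, which name no gene. Unmapped reads were 16.1% and 15.7% of all reads, unassigned reads 3.79% and 3.80%.

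Symbols and coordinates came from GENCODE M21, on the same assembly. Of 1973 IDs, 1894 matched without the version, and both members matched with it. Sequences came from RefSeq, GRCm38.p6, whose table holds hairpins for 869 of the loci. As no genome was used, 3′ UTRs were cut from GENCODE transcript sequences, and the transcript with the longest was kept. A gene of the target list is not reported here.

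As there is 1 group and no contrast, edgeR 4.0.16 gave TMM factors only. Loci with at least 10 counts were tested as described in the report at an adjusted p of 0.05, and ratios between libraries use a pseudocount of 0.5 CPM (scipy 1.17.1, R 4.3.3, Python 3.11.15). The test was tried on simulated counts. Named loci are the members, the 3 nearest to each in level, those next to each in mean CPM, the 3 highest of each list and the extreme pairs. Other loci were named after their values were seen. The alternatives tried were total counts, size factors of DESeq2 1.42.0, other count minimums, unstranded counts, thinning of replicate 1, another pseudocount, multimapping reads in the denominator, levels per base, other pair limits and each replicate left out. The 50 nearest loci, the seed-sharing pairs and 2 pair alternatives were added after seeing the data. The members and lists were chosen with earlier results of these data known. P-values measure only the difference between these libraries.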

Additional observations from a re-analysis of the deposited data

How the results depend on the processing

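The log2 ratio of replicate 1 to replicate 2 kept its direction and its side of the threshold for Mir221 and for Mir222 under all 7 alternatives of scaling, count minimum, strand, thinning and pseudocount. For Mir221 it lay between 0.23 and 0.30, with adjusted p from 0.00344 to 0.0462 (exact conditional binomial test), the highest with a minimum of 1 count. For Mir222 it lay between -0.21 and -0.09, with adjusted p from 0.255 to 0.638. The number of loci called was 177 and lay between 165 and 183 under the alternatives. With multimapping reads in the denominator the mean level of Mir221 was 72.7 CPM in place of 131 CPM and that of Mir222 39.6 CPM in place of 72.0 CPM, since these reads enlarge the denominator. Leaving out a replicate gave 118 to 145 CPM for Mir221, 69.7 to 74.3 CPM for Mir222 and a ratio of 1.58 to 2.08. Counts without regard to strand gave the same ratio, 1.83. The share of neighbouring pairs more equal than Mir221 and Mir222 was 14.4% and lay between 10.6% and 17.6% under the other limits. Mir222 rests on 218 counts in the shallower library, which sets the width of the intervals. No paired analysis was possible because the series has 1 group.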

Other observations

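The hairpins were folded in silico with RNAfold 2.7.2, as a description of sequence that no count enters. The predicted minimum free energy was -42.8 kcal/mol for Mir221 and -40.7 kcal/mol for Mir222. Per base these were -0.45 and -0.52 kcal/mol, against a median of -0.43 over 398 hairpins of tested loci. Of those hairpins, 169 had a lower value per base than Mir221 and 66 a lower value than Mir222. The GC content was 47.4% for the Mir221 hairpin and 54.4% for Mir222.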
